A study of Mus musculus with 25 samples.

Results

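The neurotransmitter receptor genes described here are the array probes whose single annotated gene symbol begins with Gabr, Gria, Grik, Grin1, Grin2, Grin3, Grm, Chrn, Chrm, Htr or Drd, the last pair followed by a digit. The rule uses names and no measured value. It found 62 of the 13832 genes that have such a probe, measured by 66 of 32996 probes. By class these are 14 GABA-A receptor probes, 8 for AMPA and kainate receptors, 7 for NMDA receptors, 2 for metabotropic glutamate receptors, 12 for nicotinic and 4 for muscarinic acetylcholine receptors, 5 for dopamine receptors and 14 for serotonin receptors. Gria1 and Gabrb2 have 2 probes each and Grin2a has 3, so probes are not independent genes. The gene table holds 83 protein-coding genes of these names, and 21 of them, among them Grin1 and Grm5, have no probe with a single annotated gene and were not analysed here.

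Transmitter receptors fall into ligand-gated channels, which open within milliseconds when the transmitter binds, and receptors coupled to G proteins, which act through second messengers. AMPA, kainate and NMDA receptors are channels for glutamate and carry most fast excitation in brain, whereas GABA-A receptors are chloride channels and carry most fast inhibition. Nicotinic receptors are channels for acetylcholine. Skeletal muscle has its own nicotinic receptor at the nerve ending, assembled from the subunits encoded by Chrna1, Chrnb1, Chrnd and, in the adult, Chrne, with Chrng in place of Chrne before birth.

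RNA was measured in brain, gastrocnemius (a calf muscle), gonadal white fat and liver of 2 mouse strains. The B6 groups are C57BL/6J, the background strain, and the congenic groups are B6.C-D7Mit353, labelled lean and homozygous, a strain carrying a segment around a chromosome 7 marker on that background. Each of the 8 groups has 3 arrays, named as biological triplicates by the series design, so 24 arrays enter the comparisons. The labels name no treatment, age or part of the brain. P-values measure the spread between these few arrays. The congenic strain is 1 line, so its segment and any other difference of that line cannot be told apart.

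A probe was called detected where its deposited signal to noise ratio (S/N) was at least 3. Over all probes 39.7% to 55.3% were detected per array. Most markers of each labelled tissue were detected there on at least 2 arrays of a group. These were 7 of 7 hepatocyte markers in both liver groups and 6 of 6 skeletal muscle markers in both gastrocnemius groups. Of 5 adipocyte markers 5 were detected in both fat groups, and of 9 neuron markers 8 in both brain groups. The exception in brain was Snap25, an abundant neuronal gene whose probe was detected on no brain array, so an undetected probe here does not show that its gene was silent. In brain, 5 of 5 striatum markers, 6 of 7 cerebellum markers, 5 of 6 hypothalamus markers and 4 of 4 choroid plexus markers were detected. Of 5 brainstem monoamine markers 2 were detected in B6 brain and 1 in congenic brain. The 4 choroid plexus markers were also detected in B6 gonadal fat. Other lists were not confined to 1 tissue either. The 6 skeletal muscle markers were detected in both fat groups, as were 4 (B6) and 5 (congenic) of 6 haploid germ cell markers. In liver 4 (B6) and 5 (congenic) of 5 pancreas acinar markers were detected. Of 3 astrocyte markers 3 were detected in both brain groups and 2 in each fat and liver group. Fat arrays differed in markers of the adjoining epididymis: the mean log2 level of 9 such genes was 18.70, 16.96 and 18.76 in B6 and 10.48, 18.80 and 15.30 in congenic fat. Levels below are log2 signals after normalization across the 24 arrays, and no probe's level is set against another probe's.

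Of the 66 probes, 31 to 39 were detected on a brain array, against 11 to 19 in gonadal fat, 10 to 15 in liver and 8 to 14 in gastrocnemius. In brain these were 47.0% to 59.1% of the 66, beside 48.0% to 54.3% of all probes. In fat they were 16.7% to 28.8%, beside 47.6% to 55.3%. In liver they were 15.2% to 22.7%, beside 40.2% to 45.6%, and in gastrocnemius 12.1% to 21.2%, beside 39.7% to 44.1%. On at least 2 of 3 arrays of both brain groups 31 were detected, and 17 of these reached that in no other group. Another 12 reached it outside brain but not in both brain groups. The share of all probes with these patterns was not computed, so nothing is read from these counts. The probe of Grin2d alone was detected on at least 2 arrays of every group. On no array of the 24 were Gabra6, Gabrp, Chrna6, Chrnd and Chrng detected. Gabra6 encodes a GABA-A subunit of cerebellar granule cells, and its probe stayed below the threshold in brain groups where 6 of 7 cerebellum markers were detected.

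**Figure D1:**
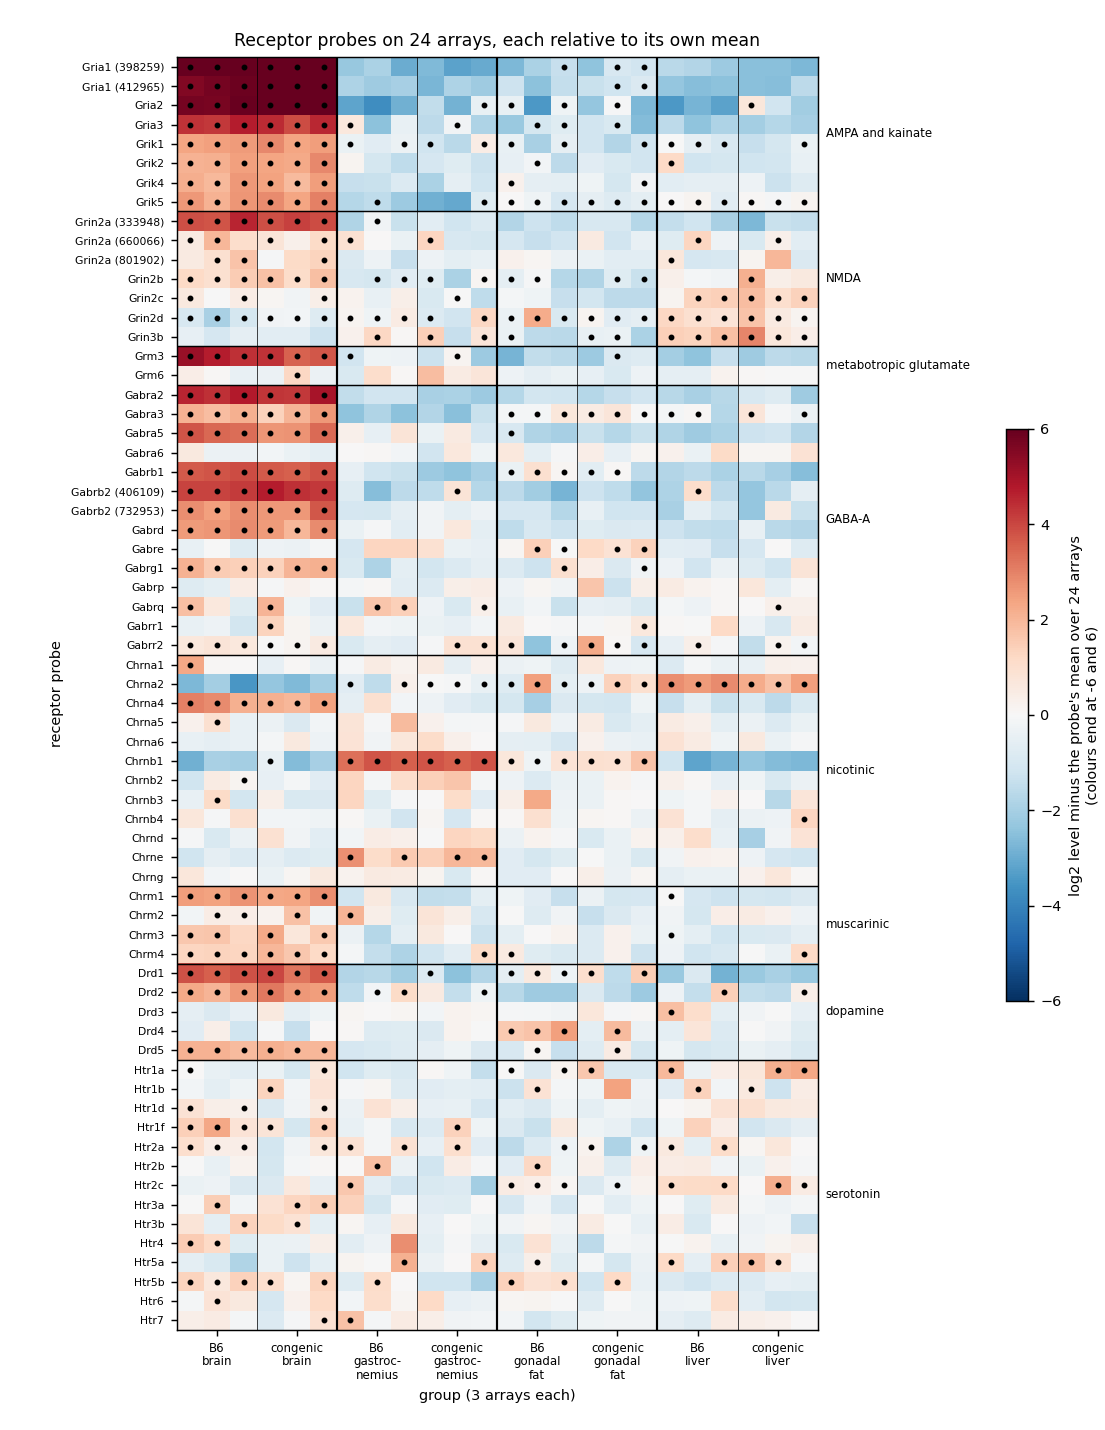
Heat map of the 66 receptor probes (rows, by receptor class) on 24 arrays (columns, 3 per group). Colour gives each probe's log2 level minus its own mean over the arrays, with colours ending at -6 and 6, and a dot marks S/N of at least 3. The AMPA, kainate and most GABA-A rows are raised in all 6 brain columns, Chrnb1 and Chrne in gastrocnemius and Chrna2 in liver.

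A probe was called higher in a tissue where its level exceeded the mean of the other 3 tissues of the strain in limma (adjusted p under 0.05 over all probes), where that tissue had the highest mean, and where it was detected on at least 2 of its arrays. The 4 tissue contrasts of a strain share arrays, so a high level in brain lowers the differences of the other tissues. By this rule 29 receptor probes (43.9% of 66) were higher in B6 brain, while 14.8% of all probes were. In congenic brain 28 probes (42.4%) were higher, against 14.6% of all probes. The lists share 26 probes, 89.7% of the B6 list and 92.9% of the congenic list. The median brain difference of the 66 probes was 0.65 in B6 and 0.74 in the congenic strain on the log2 scale, beside medians of all probes of -0.17 and -0.15. With median scaling in place of quantile normalization the medians were 0.61 and 0.47, beside -0.34 and -0.35. In whole tissue, fewer cells of a type and less RNA per cell cannot be told apart.

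All 8 AMPA and kainate probes were higher in brain in both strains, beside 14.8% (B6) and 14.6% (congenic) of all probes. The class median differences were 4.51 in B6 and 4.78 in the congenic strain. Gria1 and Gria2 encode the GluA1 and GluA2 subunits of AMPA receptors, GluA2 being the subunit that limits calcium entry. For Gria1 (probe 398259) the B6 brain arrays read 17.47, 17.13 and 17.19 and the congenic brain arrays 17.16, 17.33 and 17.37, with S/N from 96.6 to 131.2. The 18 arrays of other tissues lay between 7.43 and 9.69, and none overlapped brain. Its brain excess was 8.69 ± 0.32 (SE, n = 3 arrays per group) in B6 and 8.99 ± 0.32 in the congenic strain. In linear terms the ratio of group means was 507-fold over B6 gastrocnemius and 351-fold over B6 liver. This probe was detected on no array of either group, so the ratios are uncertain and are not bounds. The second Gria1 probe gave 7.77 ± 0.32 and 7.88 ± 0.32.

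Gria2 read 16.53, 16.51 and 16.74 in B6 brain and 17.11, 16.80 and 16.93 in congenic brain. Other tissues ranged from 7.07 to 11.50, so the gap to brain held on every array, but the spread outside brain was wide and 5 of the 18 arrays were detected. The differences were 8.38 ± 0.61 in B6 and 7.51 ± 0.61 in the congenic strain. Gria3, which encodes GluA3, read 15.42, 15.33 and 15.82 in B6 brain and 15.58, 15.02 and 15.61 in congenic brain, with differences of 5.77 ± 0.47 and 5.87 ± 0.47. The kainate receptor genes Grik1, Grik2, Grik4 and Grik5 had brain differences of 2.86 to 3.25 in B6 and 3.12 to 3.69 in the congenic strain. Grik2 and Grik4 were detected on 2 of the 18 other arrays each, so the size of their differences is uncertain. Grik5, a kainate subunit that needs a partner subunit to form a channel, was also detected on all 6 fat and all 6 liver arrays.

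Of the 7 NMDA receptor probes 4 were higher in B6 brain and 2 in congenic brain, beside 14.8% and 14.6% of all probes. With so few probes nothing about the class is read from these counts. Grin2a encodes the GluN2A subunit, and its 3 probes disagreed in size. Probe 333948 read 12.90, 12.79 and 13.62 in B6 brain and 12.92, 13.14 and 12.97 in congenic brain, all above the other 18 arrays, which reached 8.83. Its differences were 5.45 ± 0.37 and 5.27 ± 0.37. Probes 660066 and 801902 gave 1.50 ± 0.51 and 1.48 ± 0.46 in B6, where they were called, and 1.07 ± 0.51 and 0.99 ± 0.46 in the congenic strain, where they were not. The B6 call of probe 660066 ended without any 1 of the B6 brain arrays and that of probe 801902 without replicate 2 or 3. Adjusted p in limma ran from 0.023 to 0.18 and from 0.037 to 0.11 in those fits. Where it stayed under 0.05, another part of the call rule failed. In the congenic strain probe 660066 passed without gastrocnemius replicate 1. Probe 801902 passed there with congenic brain replicate 2 added (1.15, adjusted p = 0.030 in limma). Grin2b, encoding GluN2B, read 10.61, 10.39 and 10.96 in B6 brain and 11.19, 10.53 and 11.23 in congenic brain. It was higher by 1.79 ± 0.43 and 1.92 ± 0.43, although 1 liver array exceeded the lowest brain array.

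Grm3 encodes mGluR3, a G protein coupled glutamate receptor found on astrocytes as well as neurons. It read 14.78, 14.31 and 13.97 in B6 brain and 13.91, 13.14 and 13.32 in congenic brain. The 18 other arrays ended at 9.78, below every brain array. The brain excess was 6.24 ± 0.43 in B6 and 5.24 ± 0.43 in the congenic strain. Grm6, the receptor of retinal ON bipolar cells and the other member of the class, was called in no tissue.

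Among GABA-A receptor probes 8 of 14 were higher in brain, the same 8 in both strains, beside 14.8% (B6) and 14.6% (congenic) of all probes. They cover Gabra2, Gabra3 and Gabra5 (alpha subunits), Gabrb1 and Gabrb2 (beta subunits, the latter by 2 probes), Gabrg1 (a gamma subunit) and Gabrd (delta, part of receptors outside the synapse). Gabra2 read 14.41, 14.24 and 14.62 in B6 brain and 14.14, 14.10 and 14.78 in congenic brain, and it was detected on no array of another tissue. It was higher by 6.02 ± 0.30 and 6.06 ± 0.30. In B6 the ratio of its brain mean to its undetected liver mean was 81.0-fold. Gabrb2 (probe 406109) read 13.88, 13.89 and 14.01 in B6 brain and 14.54, 14.22 and 14.07 in congenic brain, with differences of 5.62 ± 0.56 and 5.80 ± 0.56. Gabrb1 read 14.47, 14.55 and 14.67 in B6 brain and 14.46, 14.35 and 14.59 in congenic brain, with differences of 4.63 ± 0.32 and 5.35 ± 0.32. Gabrb1 was also detected on 3 B6 and 2 congenic fat arrays, at 10.13 to 11.72. The remaining 6 probes, for Gabra6, Gabre, Gabrp, Gabrq, Gabrr1 and Gabrr2, include the rho subunits known from retina, and none was called in brain.

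For acetylcholine, 1 of 12 nicotinic and 3 of 4 muscarinic probes were higher in brain in both strains. Of all probes 14.8% were called higher in B6 brain and 14.6% in congenic brain, so nothing is read from the nicotinic count. Chrna4, an alpha subunit of the main high-affinity nicotinic receptor of brain, read 11.74, 11.58 and 10.87 in B6 brain and 10.86, 10.74 and 11.15 in congenic brain. It was detected on none of the other 18 arrays, and its difference was 3.45 ± 0.37 in B6 and 3.04 ± 0.37 in the congenic strain. Its usual partner gene Chrnb2 was detected on 2 arrays of no group. Chrm1, the most abundant muscarinic receptor gene of forebrain, read 11.10, 10.99 and 11.26 in B6 brain and 10.87, 10.93 and 11.36 in congenic brain. It was higher by 3.22 ± 0.39 and 3.47 ± 0.39.

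Chrm3 and Chrm4, the other muscarinic genes called, were detected on fewer arrays or nearer to the threshold. Chrm3 read 10.48, 10.54 and 10.11 in B6 brain and 11.13, 9.55 and 10.43 in congenic brain, and 2 of 3 arrays per strain were detected. Its differences were 2.08 ± 0.42 and 1.96 ± 0.42, and its call ended without any of those detected arrays because the detection rule then failed. Chrm4 read 10.58, 10.60 and 10.58 in B6 brain and 11.27, 10.89 and 10.48 in congenic brain, with differences of 2.07 ± 0.49 and 1.79 ± 0.49. The highest array elsewhere, at 10.48, came from congenic liver.

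The dopamine receptor genes Drd1, Drd2 and Drd5 were higher in brain in both strains. Drd1 and Drd2 mark the pair of output neuron types of the striatum. Drd1 read 13.39, 13.19 and 13.38 in B6 brain and 13.59, 12.78 and 13.27 in congenic brain, with differences of 5.03 ± 0.49 and 4.80 ± 0.49. Drd2 read 12.21, 11.98 and 12.53 in B6 brain and 13.09, 12.54 and 12.43 in congenic brain, with differences of 3.06 ± 0.55 and 3.70 ± 0.55. For both genes the lowest brain array lay above the highest array of any other tissue. Drd5, a second receptor of the D1 type, read 10.55, 10.54 and 10.34 in B6 brain and 10.58, 10.46 and 10.44 in congenic brain, with differences of 2.81 ± 0.36 and 2.57 ± 0.36. Drd1 was also detected on 3 B6 and 2 congenic fat arrays at up to 11.05.

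Of 14 serotonin receptor probes 1 was called in B6 brain and 2 in congenic brain, and none in both, beside the 14.8% and 14.6% of all probes, and nothing about the class is read from these counts. Htr1f, a receptor coupled to inhibitory G proteins, was higher by 1.71 ± 0.53 in B6 and stood at 0.84 ± 0.53 (adjusted p = 0.26) in the congenic strain. Htr3a, the serotonin-gated channel subunit, differed by 1.53 ± 0.43 in congenic brain and by 0.66 ± 0.43 in B6 brain (adjusted p = 0.26). Htr5b differed by 1.55 ± 0.44 in congenic and 1.05 ± 0.44 in B6 brain (adjusted p = 0.067). Without B6 brain replicate 2 the call of Htr1f ended (adjusted p = 0.12 in limma), and that of Htr5b ended without congenic brain replicate 4 (adjusted p = 0.063). The calls of Htr3a without congenic replicate 3 or 4 and of Htr5b without replicate 1 ended by the detection rule, with adjusted p between 0.028 and 0.038. In the other direction, Htr1f passed in congenic brain without replicate 3 (1.54, adjusted p = 0.043), and Htr5b in B6 brain without gastrocnemius replicate 2 (1.22, adjusted p = 0.025). The median brain difference of the class was 0.41 in B6 and 0.09 in the congenic strain.

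**Figure D2:**
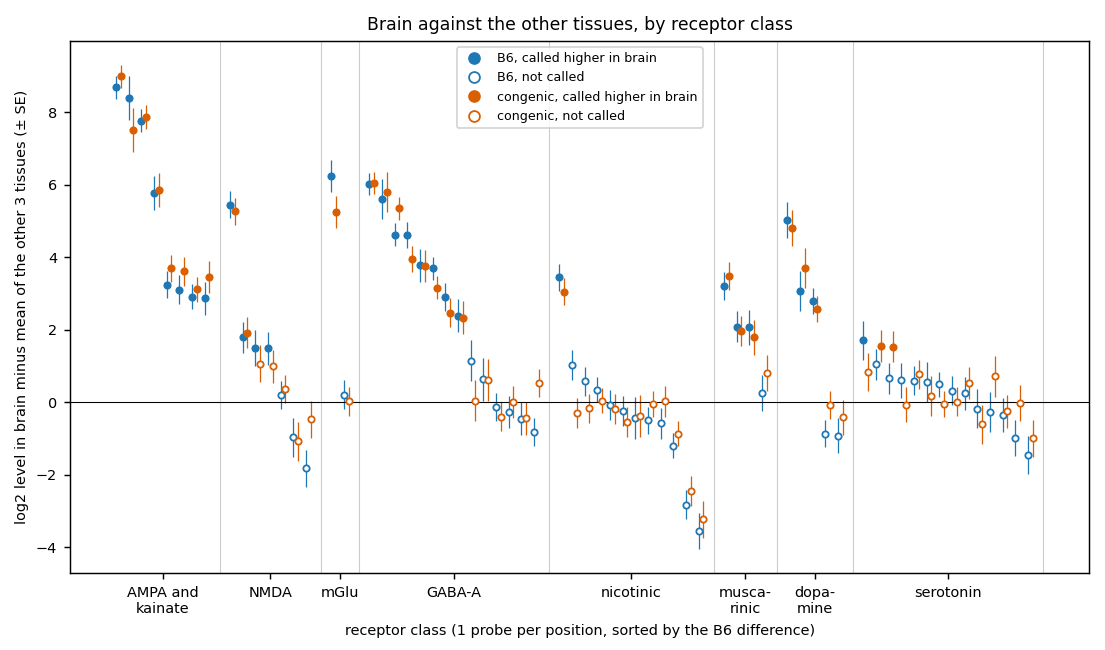
Log2 level in brain minus the mean of the other 3 tissues, with its SE, for each receptor probe in B6 (blue) and congenic mice (orange); filled points were called higher in brain. All 8 AMPA and kainate probes are filled in both strains, whereas 1 of 14 serotonin probes is filled in B6 and 2 in the congenic strain. Of all probes 14.8% were called in B6 brain and 14.6% in congenic brain.

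Genes that work with the receptors were also often called higher in brain. Of 29 receptor auxiliary and scaffold genes with a probe, 21 were higher in B6 brain and 23 in congenic brain, beside the 14.8% and 14.6% of all probes. The largest B6 differences were those of Tmem35a (6.41), a chaperone of nicotinic receptors, Cnih2 (6.00) and Cacng2 (5.13), auxiliary subunits of AMPA receptors, and Nlgn2 (5.19), an adhesion protein of inhibitory synapses. Of 7 GABA-B, glycine and delta receptor genes 4 were higher in each brain group. Examples were Gabbr1, a GABA-B receptor subunit, at 4.84 in B6 and 4.58 in the congenic strain, and Glrb, the glycine receptor beta subunit, at 4.42 and 4.51.

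Of 28 transmitter synthesis, packing and uptake genes with a probe, 7 were higher in each brain group, beside 14.8% (B6) and 14.6% (congenic) of all probes. In each liver group 9 were higher, beside 10.2% and 10.3% of all probes, and in fat 4 in B6 and 3 in the congenic strain, beside 10.1% and 9.37%. In B6 brain the largest differences were those of Gad1 (8.73) and Gad2 (7.81), the enzymes that make GABA, and Slc32a1 (7.43), which loads it into vesicles. In B6 liver they were Slc6a13 (4.35), a GABA transporter, Ddc (3.71), which makes dopamine and serotonin, Slc1a2 (3.52), a glutamate transporter, and Abat (3.38), which breaks down GABA. Of the adrenergic receptor list 1 gene had a probe, Adra2c, and it was called in both brain groups, at 3.45 in B6 and 4.19 in the congenic strain.

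In gastrocnemius 2 receptor probes were called higher in each strain, where 10.4% of all probes were called in B6 and 10.1% in the congenic strain. Both encode subunits of the muscle nicotinic receptor. Their promoters are shown because they are the receptor genes raised together in muscle, and because subunit genes of this receptor are known to use E-boxes, bound by muscle transcription factors such as MyoD, and in Chrne an N-box for expression at the nerve ending. The sequences are the RefSeq windows of GRCm38.p6 from 250 bases before to 50 after the gene start, on the gene's own strand, chr11:69795888-69796187 (minus) for Chrnb1 and chr11:70619145-70619444 (minus) for Chrne. Capitals mark CANNTG (E-box) and CCGGAA (N-box), each searched on both strands; the motifs do not overlap.
Chrnb1: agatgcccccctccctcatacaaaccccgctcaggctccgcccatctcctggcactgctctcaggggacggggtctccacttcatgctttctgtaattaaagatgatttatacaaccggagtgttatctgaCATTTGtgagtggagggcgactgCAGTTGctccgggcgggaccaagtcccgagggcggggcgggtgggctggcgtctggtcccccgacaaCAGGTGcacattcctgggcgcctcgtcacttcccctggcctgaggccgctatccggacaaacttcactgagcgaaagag
Chrne: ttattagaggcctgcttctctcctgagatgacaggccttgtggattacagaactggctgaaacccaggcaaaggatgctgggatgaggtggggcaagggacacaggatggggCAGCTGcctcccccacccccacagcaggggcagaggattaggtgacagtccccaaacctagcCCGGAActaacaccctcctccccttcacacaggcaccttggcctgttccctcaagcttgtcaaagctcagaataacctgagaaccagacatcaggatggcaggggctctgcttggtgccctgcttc

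The Chrnb1 window holds 3 E-boxes, starting 119, 96 and 29 bases before the gene start. The Chrne window holds 1 E-box of the form CAGCTG, starting 138 bases before the start, and 1 N-box starting 76 bases before it. Of 32851 promoter windows in the table, 72.3% hold CANNTG, 16.3% hold CAGCTG and 14.9% hold CCGGAA, so an E-box alone is common. The windows of Chrna1 and Chrng, whose probes were not detected in muscle, hold 3 E-boxes each and no N-box. These matches are letters in a window and were not tested as binding sites. Of the 62 receptor genes 48 have a window in that table. The median GC content of the windows was 64.2% for the 17 genes called higher in brain in both strains that have a window, 55.3% for the other 31 genes and 52.7% over all windows.

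Chrnb1, the beta subunit gene, read 13.68, 14.13 and 13.95 in B6 gastrocnemius and 14.14, 13.94 and 14.13 in congenic gastrocnemius, with S/N from 38.2 to 77.9. The other 18 arrays ended at 12.08, so the groups did not overlap. The excess over the other tissues was 4.97 ± 0.41 in B6 and 4.72 ± 0.41 in the congenic strain. In B6 the ratio was 57.4-fold over brain and 60.8-fold over liver, where most or all arrays were below the detection threshold. Fat came next in the order of levels: Chrnb1 was detected on all 6 fat arrays, at 11.02, 10.13 and 11.20 in B6 and 11.30, 11.25 and 12.08 in the congenic strain. The mean of 6 skeletal muscle markers on the same fat arrays was 13.55, 12.15 and 10.35 in B6 and 11.71, 11.47 and 11.90 in the congenic strain, against 20.20 to 20.49 in gastrocnemius. Their part in the fat level of Chrnb1 was not tested.

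Chrne, the adult epsilon subunit gene, read 12.06, 10.42 and 10.90 in B6 gastrocnemius and 10.75, 11.32 and 11.28 in congenic gastrocnemius. It was detected on 2 of 3 arrays in each strain and on none of the other 18 arrays, which ended at 9.60. The difference was 2.32 ± 0.35 in B6 and 2.44 ± 0.35 in the congenic strain. Without either detected array of a strain its call ended under the detection rule, although its adjusted p stayed at or below 0.00053 in those fits. Among the other muscle subunit genes, Chrna1 read 8.15, 8.71 and 8.44 in B6 and 8.77, 7.71 and 8.51 in congenic gastrocnemius, below the detection threshold on all 6 arrays. The probes of Chrnd and Chrng were also undetected there.

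Of 10 neuromuscular junction genes with a probe, 1 was called in B6 gastrocnemius and 2 in congenic gastrocnemius, beside the 10.4% and 10.1% of all probes, so nothing is read from these counts. Rapsn, which clusters the nicotinic receptor at the synapse, was higher by 3.35 in B6 and 3.59 in the congenic strain. Musk, the receptor kinase of the junction, was called only in the congenic strain, at 1.75, and whether the strains differ in that contrast was not tested. Other members of that list were called in fat (Erbb2, Lamb2 and Utrn) or brain (Agrn and Lrp4).

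In liver 3 receptor probes were called higher in B6 and the same 3 plus 2 others in the congenic strain, where 10.2% and 10.3% of all probes were called. The largest difference was that of Chrna2, a nicotinic alpha subunit gene known in brain from few cell groups. It read 13.29, 13.07 and 13.33 in B6 liver and 12.76, 12.30 and 12.97 in congenic liver, with a median S/N of up to 25.2. Of the other 18 arrays 1, B6 fat replicate 2 at 12.97, reached the liver range. The difference was 3.72 ± 0.50 in B6 and 2.78 ± 0.50 in the congenic strain. The ratio to brain, where Chrna2 was detected on no array, was 43.8-fold in B6 and 22.7-fold in the congenic strain.

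Its level followed 1 order of tissues in both strains: brain lowest, then gastrocnemius, fat and liver. The gastrocnemius arrays read 9.83, 8.98 and 10.81 in B6 and 10.52, 10.46 and 10.06 in the congenic strain, and the B6 fat arrays 9.74, 12.97 and 9.96. In B6 the means were 7.78, 9.87, 10.89 and 13.23, and the SD in fat was 1.81, so gastrocnemius and fat did not differ beyond their spread. Gene order places Ephx2, a soluble epoxide hydrolase gene, next to Chrna2 on chromosome 14. Ephx2 had the same order, with B6 means of 10.77, 13.13, 16.47 and 18.33 and congenic means of 10.51, 13.74, 16.58 and 18.12. Within congenic fat the order of arrays differed between the neighbours: Chrna2 read 10.19, 11.88 and 11.48 where Ephx2 read 17.02, 15.46 and 17.26. This pair was chosen after its values were seen, and whether RNA of Ephx2 contributes to the Chrna2 signal was not tested. The gene on the other side of Chrna2, Ptk2b, had another order. Its mean was highest in brain (11.53 in B6 and 12.15 in the congenic strain) and lowest in gastrocnemius, where it was detected on no array.

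Grin2c and Grin3b, which encode the NMDA receptor subunits GluN2C (known from cerebellum) and GluN3B, were the other liver calls in both strains. Grin2c read 9.27, 10.43 and 10.54 in B6 liver and 10.94, 10.14 and 10.49 in congenic liver. Its difference was 2.12 ± 0.38 in the congenic strain and 1.04 ± 0.38 in B6 (adjusted p = 0.040). The B6 call ended without B6 liver replicate 2 or 3, gastrocnemius replicate 2, fat replicate 3 or brain replicate 2 (adjusted p up to 0.20) and with median scaling (adjusted p = 0.063). Grin3b read 10.53, 10.43 and 10.90 in B6 liver and 12.02, 9.75 and 9.48 in congenic liver, with differences of 1.99 ± 0.54 and 1.83 ± 0.54. In gastrocnemius Grin3b read 9.32, 10.33 and 9.15 in B6 and 10.52, 7.71 and 9.81 in the congenic strain, overlapping liver. Without congenic liver replicate 1, the highest liver array, the congenic call ended (adjusted p = 0.20). The gene next to Grin3b on chromosome 10, Wdr18, was also highest in liver, at 12.73 in B6.

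Htr1a and Htr2c were called higher in congenic liver and not in B6 liver, and whether the strains differ in that contrast was not tested. Htr1a, a serotonin receptor coupled to inhibitory G proteins, read 10.28, 11.72 and 11.93 in congenic liver and 11.55, 9.28 and 10.02 in B6 liver, so the strains overlapped. Its differences were 1.99 ± 0.54 and 1.18 ± 0.54. Htr2c read 8.83, 10.96 and 9.30 in congenic liver and 9.94 ± 0.05 (SD, n = 3) in B6 liver. Its differences were 1.51 ± 0.50 and 1.23 ± 0.50, and congenic liver replicate 2 was its highest array. That array stood apart in 5 pancreas acinar markers, whose mean reached 18.55 there. Their mean was 9.36 on congenic liver replicate 1, 13.08 on replicate 3 and at most 11.84 on B6 liver arrays. Without congenic liver replicate 2 the difference of Htr2c fell to 0.88 (adjusted p = 0.28 in limma), while that of Htr1a was 1.79 with adjusted p = 0.041 and its call ended by the detection rule alone. Without replicate 3 Htr1a stood at 1.69 (adjusted p = 0.052), and Htr2c at 1.72 (adjusted p = 0.036) again failed detection only. In B6 liver Htr2c was called without B6 gastrocnemius replicate 1, at 1.53 (adjusted p = 0.0084). The part of pancreas tissue in these levels was not tested.

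Grin2d, encoding the NMDA subunit GluN2D, was the receptor gene detected most widely. It read 11.88, 11.61 and 11.48 in B6 liver and 12.37, 11.18 and 10.80 in congenic liver, 10.31, 12.86 and 9.72 in B6 fat and 10.80, 9.96 and 10.09 in congenic fat. In gastrocnemius it read 10.80, 10.40 and 11.15 in B6 and 9.84, 9.51 and 11.88 in the congenic strain, and in brain 9.66, 8.68 and 9.61 in B6 and 10.44, 10.45 and 9.86 in the congenic strain. Its means were highest in liver in both strains, and in B6 lowest in brain. In the congenic strain the means of brain (10.25, SD 0.34) and fat (10.28, SD 0.45) did not differ beyond their spread. All 6 liver arrays lay above all 6 brain arrays, while gastrocnemius and fat each overlapped both over the strains together. The liver difference missed the threshold, with adjusted p = 0.053 in B6 and 0.099 in the congenic strain in limma. Over probes with S/N of at least 3 on at least 3 of 24 arrays it passed in B6 (1.30, adjusted p = 0.044 in limma). Without B6 fat replicate 2, which read 12.86, it passed in B6 (difference 1.62, adjusted p = 0.0038), and without congenic gastrocnemius replicate 3 it passed in the congenic strain (1.38, adjusted p = 0.025). In B6 its neighbour on chromosome 7, Kdelr1, also had its lowest mean in brain (10.53) and its highest in liver (12.51). The neighbour on the other side, Grwd1, had its highest mean in gastrocnemius (13.21 in B6) and its lowest in fat (11.61).

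**Figure D3:**
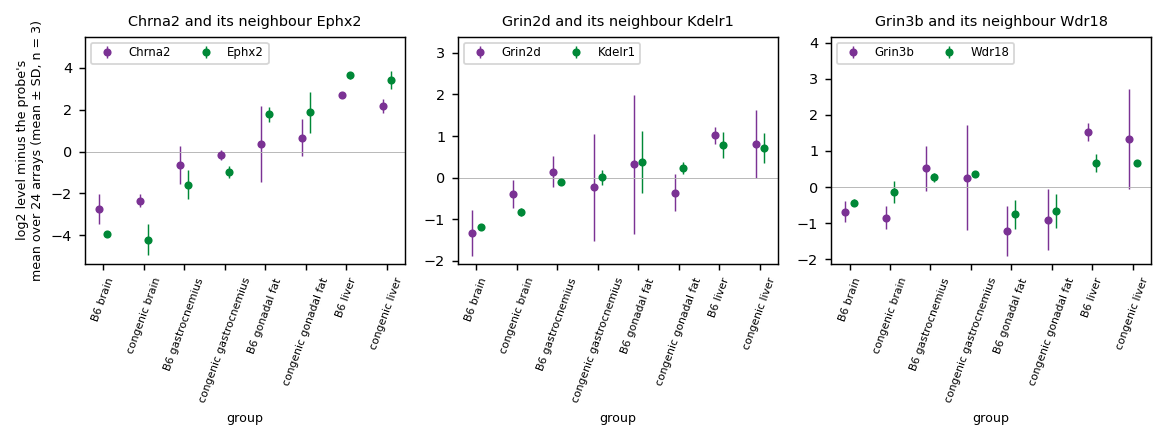
Mean ± SD (n = 3 arrays) of the log2 level, minus each probe's own mean over 24 arrays, for Chrna2, Grin2d and Grin3b (purple) and for a neighbouring gene of each (green) in the 8 groups. Chrna2 and Ephx2 share the order brain, gastrocnemius, fat, liver. The 3 pairs were chosen after their values were seen. The other neighbours with a probe, Ptk2b of Chrna2 and Grwd1 of Grin2d, had other orders and are not shown.

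In gonadal fat 1 receptor probe was called per strain, Drd4 in B6 and Gabre in the congenic strain, where 10.1% and 9.37% of all probes were called. Drd4, a dopamine receptor of the D2 type, read 9.96, 10.09 and 10.83 in B6 fat and 7.78, 10.29 and 8.02 in congenic fat, and it was detected on no array of another tissue. Its difference was 2.33 ± 0.49 in B6. The single high congenic array, replicate 2, is the array with the highest epididymis marker mean of its group (18.80, against 10.48 and 15.30). All 3 B6 arrays had means of at least 16.96. The part of epididymis tissue in the Drd4 level was not tested.

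Gabre, the GABA-A epsilon subunit gene, read 10.20, 9.84 and 10.36 in congenic fat and 9.11, 10.45 and 8.96 in B6 fat. It differed by 1.42 ± 0.46 (adjusted p = 0.023) in the congenic strain, and its call ended when any congenic fat array was left out. Several genes higher in brain were also detected in fat. Grik5 read 10.52, 10.20 and 9.49 in B6 fat and 9.95, 9.70 and 9.88 in congenic fat. Gria2 read 10.36, 7.38 and 10.56 in B6 fat and 8.51, 10.73 and 8.14 in congenic fat, detected on 2 B6 arrays and 1 congenic array. Gabra3 read 9.71, 9.68 and 10.51 in B6 fat and 10.28, 10.51 and 9.79 in congenic fat, detected on all 6 arrays, while in brain it lay between 11.21 and 12.43.

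**Figure D4:**
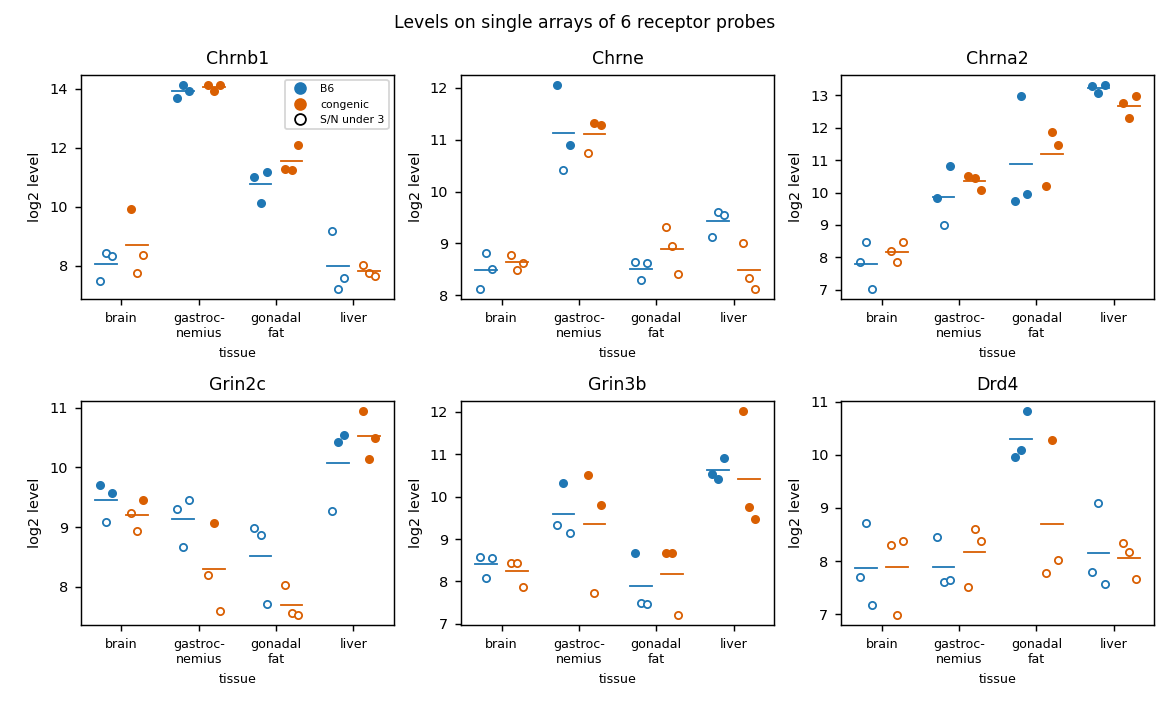
Log2 levels on each of 24 arrays for 6 receptor probes, by tissue, in B6 (blue) and congenic mice (orange); open points have S/N under 3 and bars are group means. Chrnb1 and Chrne are highest in gastrocnemius, Chrna2, Grin2c and Grin3b in liver, and Drd4 is raised on 3 B6 and 1 congenic fat arrays.

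The strain comparison asks which receptor genes differ between congenic and B6 mice within a tissue. It was fitted on the 6 arrays of the tissue, normalized among themselves, over probes detected on at least 3 of them, so these levels are on another scale than those above. No receptor probe passed limma's adjusted threshold of 0.05 in any tissue, and 0 of all probes tested did. Tested receptor probes numbered 37 in brain, 10 in gastrocnemius, 20 in fat and 11 in liver. At an unadjusted p under 0.05 they numbered 4, 0, 1 and 1, beside 9.65%, 2.81%, 3.46% and 3.27% of all probes tested. Arrays of the strains did not overlap for 6, 0, 1 and 1 receptor probes, beside 15.4%, 7.76%, 8.10% and 6.96% of all probes. The brain median of congenic minus B6 was -0.02, with 17 probes above 0 and 20 below, and that of all probes was -0.03.

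In brain the smallest p was that of Grm3. It read 14.74, 14.03 and 14.20 on the congenic arrays and 15.51, 15.09 and 14.80 on the B6 arrays, all congenic values below all B6 values. The difference was -0.81 ± 0.22 (SE) on the log2 scale, with adjusted p = 0.48 in limma. Gabra5 read 12.96, 13.01 and 13.63 in congenic and 13.98, 13.67 and 13.60 in B6 brain, a difference of -0.55 ± 0.21 with overlap. Grin2d read 11.39, 11.40 and 10.75 in congenic and 10.52, 9.33 and 10.47 in B6 brain, a difference of 1.07 ± 0.41 without overlap. The differences of Gria2 (0.31 ± 0.14) and Gabrb2 (probe 406109, 0.31 ± 0.15) were smaller, and their adjusted p values were 0.51 and 0.52.

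The congenic strain is named for a chromosome 7 marker, and 4 receptor genes with a probe lie on chromosome 7, at positions relative to that marker that were not analysed here. In brain the congenic minus B6 differences were 0.27 ± 0.20 for Grik5, -0.55 ± 0.21 for Gabra5 and 1.07 ± 0.41 for Grin2d. In liver they were 0.19 ± 0.37 for Grik5 and -0.20 ± 0.41 for Grin2d, and in fat -0.24 ± 0.39, -0.63 ± 0.76 and, for Drd4, -1.82 ± 0.78. None passed the adjusted threshold, and Grin2d was higher in brain but lower in the other 3 tissues.

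In fat the smallest p was that of Drd4, whose congenic arrays read 7.68, 10.54 and 7.93 and B6 arrays 10.20, 10.34 and 11.09 (adjusted p = 0.91 in limma). Without congenic fat replicate 2, the array set beside the epididymis markers above, its difference became -2.76 (adjusted p = 0.048 in limma). Drd4 was detected on 4 fat arrays. A probe entered that fit with at least 3 detected arrays, so the 3 B6 arrays alone could admit it. The array left out was also the high congenic one, so no strain difference is read from that fit. Chrnb1 read 11.55, 11.50 and 12.28 in congenic fat and 11.28, 10.37 and 11.45 in B6 fat, higher by 0.74 ± 0.39 without overlap. Htr5b, Gabrb1 and Htr2c differed by -1.42 ± 0.71, -0.97 ± 0.55 and -0.79 ± 0.50 in fat, all with overlap. In liver Chrna2 read 12.06, 11.56 and 12.29 in congenic and 12.64, 12.39 and 12.68 in B6 mice, a difference of -0.60 ± 0.27 without overlap (adjusted p = 1.00). Htr1a, Gabra3, Grin2c and Grik1 followed in liver at 0.98 ± 0.60, 0.58 ± 0.55, 0.40 ± 0.44 and -0.36 ± 0.58.

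In gastrocnemius the smallest p was that of Chrnb1, which differed by 0.17 ± 0.18, with 13.89, 13.68 and 13.88 in congenic and 13.39, 13.88 and 13.68 in B6 muscle. Chrna2, Htr2a, Gabrq and Grin2d had the next smallest p values, with differences of 0.40 ± 0.49, -0.50 ± 0.61, -0.70 ± 0.90 and -0.31 ± 0.60. Their adjusted p was 0.996 for each in limma, and the congenic and B6 arrays overlapped in every case.

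**Figure D5:**
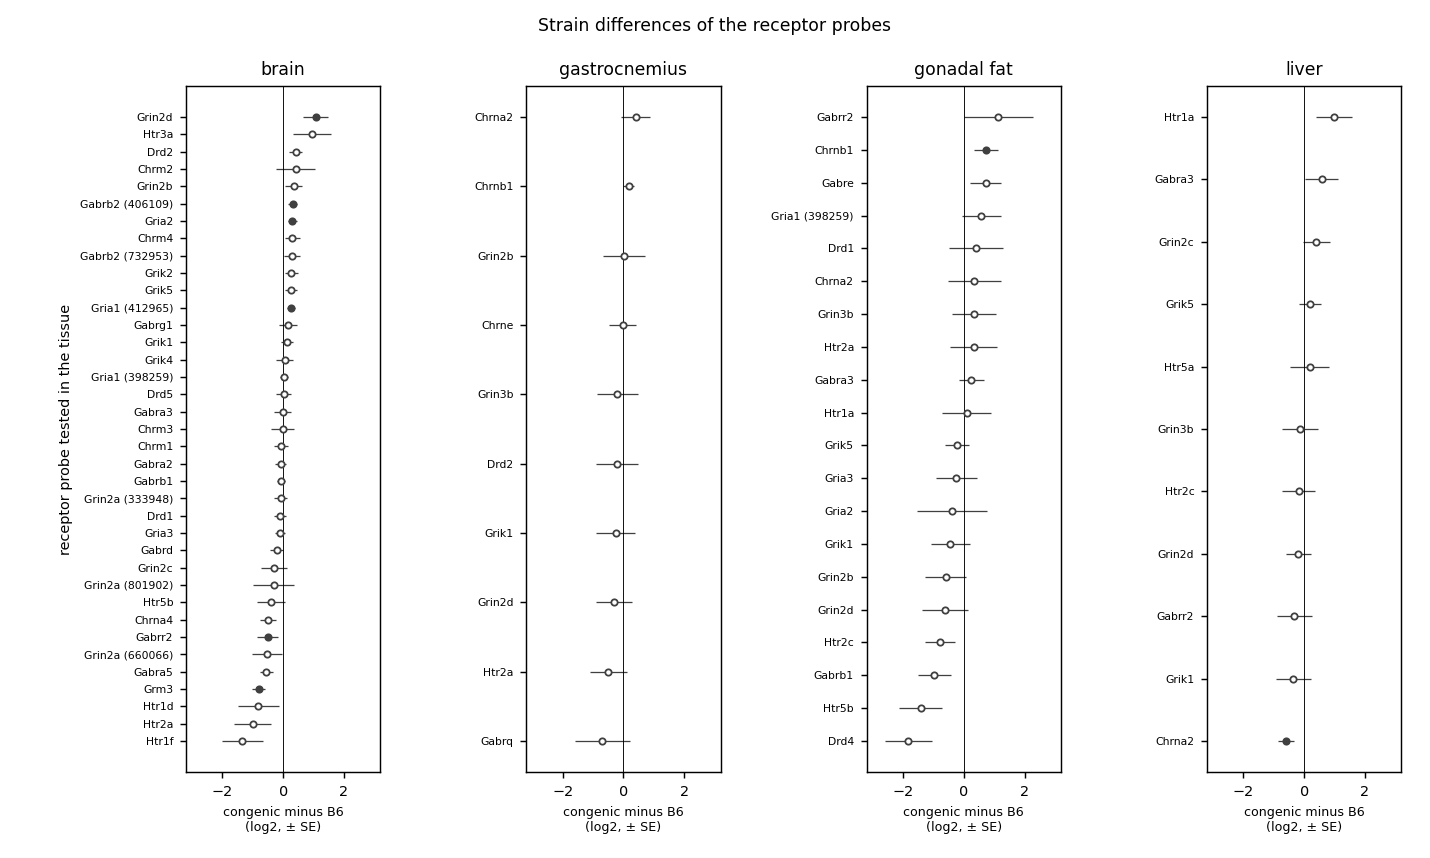
Congenic minus B6 difference in log2 level with its SE for each receptor probe tested in brain, gastrocnemius, gonadal fat and liver; filled points have no overlap between the 3 arrays of each strain. No point passed the adjusted threshold, and 6 of 37 brain points are filled.

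Whether the strain difference varied among tissues was tested by an interaction term over the 24 arrays. It called 0 of 66 receptor probes and 0 of all probes at an adjusted p under 0.05 in limma, and 5.15% of all probes had an unadjusted p under 0.05. The receptor probe of smallest p was Gria2, with an adjusted p of 0.98 in limma. Its congenic minus B6 differences were 0.35 in brain, 1.68 in gastrocnemius, -0.31 in fat and 2.30 in liver, each ± 0.74 (SE), and outside brain it was detected on at most 2 arrays of a group. For Htr5b the differences were -0.33, -1.57, -1.23 and 0.31 in the same order of tissues, each ± 0.53. Gabrr1 (1.00, -0.42, 0.04 and -0.67, each ± 0.47), Chrng (-0.10, -0.65, 0.47 and 0.79, each ± 0.42) and Drd3 (0.55, -0.04, 0.35 and -1.01, each ± 0.46) followed, each with an adjusted p of 0.98 in limma. Chrng was detected on no array, Drd3 on 1 liver array and Gabrr1 on 1 brain and 1 fat array. The differences of these probes are therefore mostly between signals below the detection threshold. No array left out brought a receptor probe past the threshold.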

How the data were processed

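Applied Biosystems mouse arrays with 1 colour (chemiluminescence) were hybridised with digoxigenin-labelled cRNA from TRIzol RNA, per the labels' protocols. The deposited Signal column is a linear intensity per probe, with a signal to noise score (S/N) and a flag of 0 or 1 beside it, per the file headers. The rule behind the flag was found in no label or header. The deposited series table holds log2 values that equal log2 Signal plus a constant per array and are blank where S/N was under 3, as checked on all 25 arrays. Gene names came from the platform annotation: 14401 probes had 1 gene, 247 several and 18348 none.

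Signal was corrected by normexp with an offset of 50, taken to log2 and quantile normalized in limma 3.58.1 under R 4.3.3, over 24 arrays for tissues and over the 6 arrays of a tissue for strains, there with S/N of at least 3 on at least 3 arrays. Tests were limma's moderated tests with a variance trend and Benjamini-Hochberg adjustment over all probes fitted, and error bars in tissue contrasts are SEs of that fit. Folds over a group without a detected array use its group mean or, where higher, the lowest signal of detected probes per array. A probe's own detection limit can lie above that value, so these folds are not bounds. The number of arrays limits the precision, and no depth applies. Same-group array pairs correlated at 0.890 to 0.963, and no pair shared more than 12 equal probe signals.

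Congenic brain replicate 2 is not listed in the series design and entered only an alternative; its title shares a number with replicate 4, so that alternative may not add an independent animal. B6 adipose array 572 stands among livers in the design text but is labelled adipose, and was used as adipose. Title numbers that recur across liver, fat and muscle were taken as the animal. As a block they gave a correlation of -0.0605. The receptor genes, the gene lists and the tests were chosen with earlier results of these data known. Named with values per array are probes called in a tissue in both strains (in brain the 3 of largest difference per class), up to 5 of highest S/N in each other tissue, and the 5 of smallest p per strain comparison and for the interaction; other receptor probes called are given with them. List genes are up to 4 by largest difference; the neighbouring genes were added after their values were seen. Alternatives were median scaling, no background correction, no variance trend, other filters on dim probes, the strain contrast from the 24-array fit, the animal as a block, congenic brain replicate 2 added, and each array left out.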

Additional observations from a re-analysis of the deposited data

Results flagged for a closer look

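Chrnd, the delta subunit gene of the muscle nicotinic receptor, carried the flag value 0 on 25 of 25 arrays, in a column that enters no comparison above. Its S/N lay between -2.0 and 0.9 on these arrays, and 90 of 32996 probes had flag 0 on all of them. What the flag stands for is not given in the sources used here.

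Congenic brain replicate 2, which is outside the main comparisons, had 39 receptor probes with S/N of at least 3. All 27 receptor probes detected on each of the 6 brain arrays used were detected there as well, and 0 were detected there and on no other brain array. Its title shares a number with congenic brain replicate 4 and differs from it by a letter, so both may come from related material and this is no independent check.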

How the results depend on the processing

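With each of the 24 arrays left out in turn, the probes called higher in brain numbered 25 to 30 in B6 and 25 to 29 in the congenic strain, in gastrocnemius 1 to 2 in each strain, in fat 1 in B6 and 0 to 1 in the congenic strain, and in liver 2 to 4 and 3 to 7. The strain calls stayed at 0 except in fat, where they ranged from 0 to 1, and the interaction stayed at 0. The fat call was that of Drd4, with the limit given above. Over these fits 1158 of 1200 values of single receptor probes kept their side of the threshold, 31 lost a call and 11 gained one. A change of sign was counted only for probes called in the main or the reduced fit, and 0 occurred there. Under the other settings all 68 counts stayed within a factor of 1.5 of those reported, and 559 of 563 single values kept their side; 1 call was lost and 3 were gained. With the animal as a replicate block the tissue counts were 29, 2, 1 and 3 in B6 and 28, 2, 1 and 5 in the congenic strain for brain, gastrocnemius, fat and liver, and the interaction count was 0, so the block changed no count. Title numbers did not recur within liver, fat or gastrocnemius, and each brain array was entered as its own block. The strain fits therefore had no block. The causes of these changes were not tested. Detection is a limit for the receptor probes: 18 were detected on at least 2 arrays of no group, and 5 on no array at all. Their levels are uncertain, and no bound on them was established. The share of all probes with this pattern was not computed.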
